A study of Danio rerio with 24 samples.

Results

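The transcript described here is that of pxna (ENSDARG00000058391), which encodes paxillin in the zebrafish, followed through single mature, unfertilized eggs of 5 mothers. It was chosen by its normalized Cy3 levels in these eggs, which differed strongly between clutches, so those levels in the eggs are given as a description and without a test. It is 1 of 3835 genes that the tables held here tie to a probe. The only probe they give it is spotted 1 time per array and was designed on a UniGene transcript. Cross-hybridization of that probe is listed for 0 further targets. The main design set has 88754 probes, and 26792 of them were called expressed, that of pxna included.

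The eggs came from wild-type ABTL females that were sisters, with 5 eggs each from mothers 1, 4, 2 and 3 and 4 eggs from mother 5. Each female was squeezed and gave 1 clutch, and each egg was frozen within minutes, so mother and clutch cannot be told apart. No egg was treated, and age was not given in the sources used here. On each of the 24 arrays the amplified RNA of 1 egg was labelled with Cy3 and a reference pooled from eggs with Cy5, and levels are relative to the other transcripts of the same egg.

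Paxillin is a scaffold protein of focal adhesions, the sites where integrin receptors in the cell membrane are coupled to the actin cytoskeleton. It carries no enzyme activity of its own, and brings together kinases such as focal adhesion kinase and Src, adaptors such as Crk, the integrin-linked kinase complex, and regulators of the small GTPases Rac and Cdc42. An unfertilized fish egg does not transcribe its genes, so the RNA measured in it was laid down by the mother during oogenesis.

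The normalized level of pxna, the log2 of the median Cy3 signal after quantile normalization between arrays, was 10.02, 9.55, 9.74, 9.80 and 9.86 in eggs 1 to 5 of mother 1. It was 9.85, 10.10, 9.89, 10.01 and 10.02 in the eggs of mother 4. In the eggs of mother 5 it was 9.99, 10.13, 10.20 and 9.80. These 14 eggs were all high, and their clutch ranges overlapped.

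In the eggs of mother 2 the level was 6.53, 6.64, 6.44, 6.55 and 6.67. In those of mother 3 it was 6.60, 6.47, 6.41, 6.74 and 6.78. These 10 eggs were all low, and the ranges of the 2 clutches overlapped. Between the lowest egg of mothers 1, 4 and 5 and the highest egg of mothers 2 and 3 lay a gap of 2.77 (log2), and 0 eggs fell into it.

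**Figure D1:**
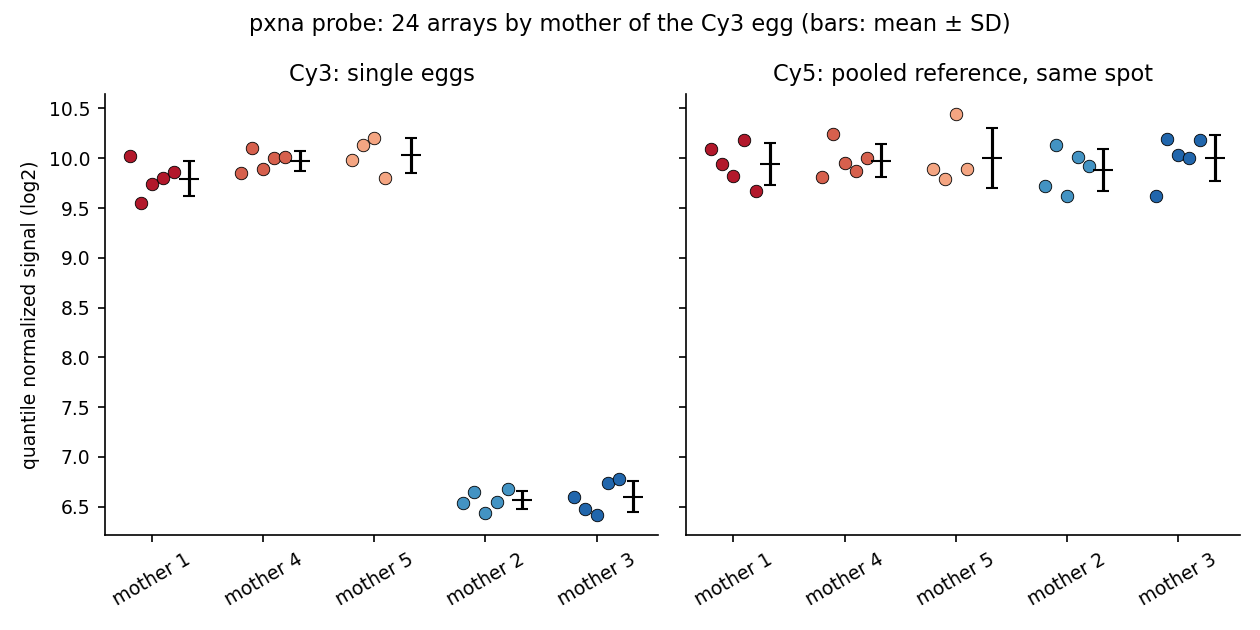
Quantile normalized log2 signal of the pxna probe on 24 arrays, for the Cy3-labelled eggs in the left panel and the Cy5-labelled pooled reference in the right panel; points are arrays, placed under the mother whose egg was in Cy3, and bars are means with SD. In Cy3 the eggs of mothers 1, 4 and 5 lie at 9.55 to 10.20 and those of mothers 2 and 3 at 6.41 to 6.78, while in Cy5 the same spots lie at 9.62 to 10.45 in all groups.

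From the highest down, mother 5 had a mean of 10.03 ± 0.18 (SD, n = 4), mother 4 of 9.97 ± 0.10, mother 1 of 9.79 ± 0.17, mother 3 of 6.60 ± 0.16 and mother 2 of 6.57 ± 0.09 (SD, n = 5 each). In this order mothers 5 and 4, mothers 4 and 1, and mothers 3 and 2 were neighbours whose eggs overlapped, with differences of 0.06, 0.18 and 0.03. Only mothers 1 and 3 were neighbours without overlap, and their means were 3.19 apart. On the linear scale mother 5 was 11.02 times above mother 2 and mother 1 was 9.15 times above mother 3, the most and the least distant pairs across the gap. Those ratios are of signals that still hold the array background.

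After quantile normalization sister eggs differed little. The largest fold change of pxna within any clutch was 1.39, between eggs 1 and 2 of mother 1, while the largest over all 24 eggs was 13.8. Over the 26792 expressed probes the medians of the same measures were 1.54 and 1.92. Without normalization the largest fold change of pxna within a clutch was 7.48, in mother 1. With the ratio of Cy3 over Cy5 after loess it was 3.93, in mother 3, where the egg signal was near background. In the normalized Cy3 values the gap of 2.77 was 5.80 times the widest clutch range of pxna. A gap of that size or more was found for 10 expressed probes including pxna, and a fold change over all eggs of at least that of pxna for 182.

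Before normalization, the median Cy3 signal of the pxna spot lay between 276 and 2064 intensity units for mother 1, between 1121 and 2257.5 for mother 4 and between 557 and 1567.5 for mother 5. In the eggs of mothers 2 and 3 it lay between 76 and 108. The local background of the spot was 52 to 66 on all arrays. The signal was therefore 4.53 to 39.0 times the background in the eggs of mothers 1, 4 and 5, and 1.36 to 1.86 times in those of mothers 2 and 3.

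The scanner software marked the Cy3 spot as well above background in 5 of 5 eggs of mother 1, 5 of 5 of mother 4 and 4 of 4 of mother 5. In mother 2 it did so in 3 of 5 eggs and in mother 3 in 4 of 5. By the stricter call of presence, which requires a probability over 0.95 of belonging to the high-variance probes, pxna was present in all 14 eggs of mothers 1, 4 and 5 and in 0 of the 10 eggs of mothers 2 and 3. The lowest log2 signal called present was 6.56 to 7.46, depending on the array, and the eggs of mothers 2 and 3 stayed below the threshold of their own array. All these readings come from 1 probe. The paper raised point mutations in the target of a probe as a concern for such profiles, and compared several probes for some genes. Here a variant in the target was not tested for pxna, as no further probe was paired with it.

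**Figure D2:**
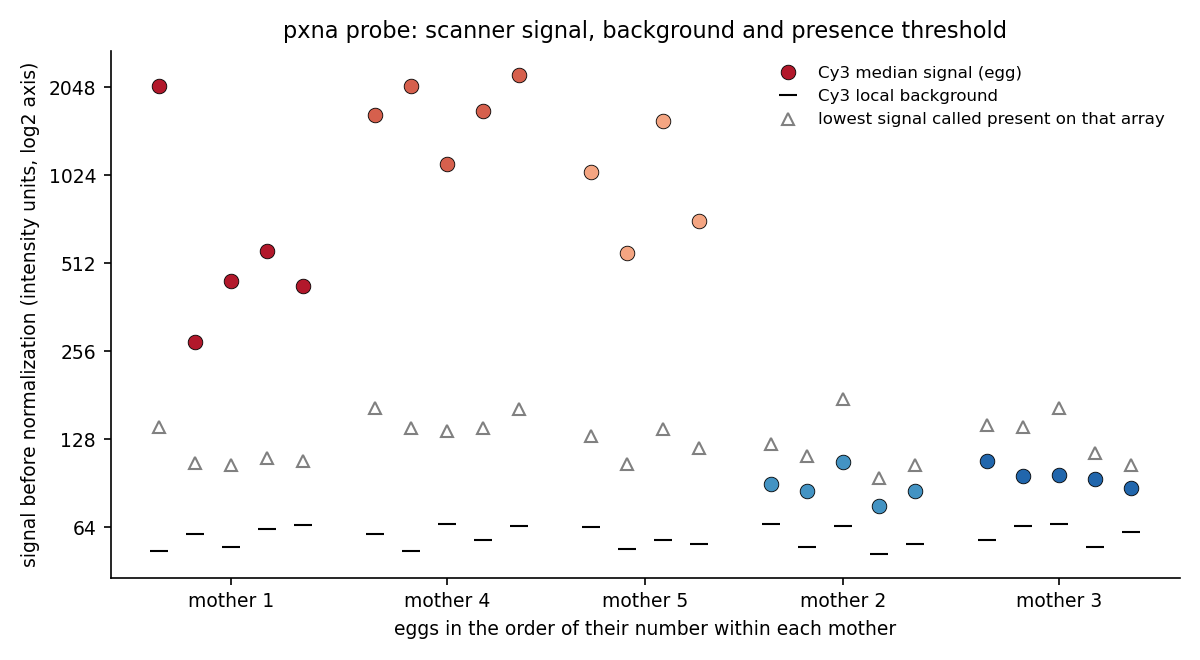
Median Cy3 signal of the pxna spot before normalization (filled points), its local background (dashes) and the lowest signal called present on that array (open triangles), in intensity units on a log2 axis, for the eggs of each mother in the order of their number. All eggs of mothers 1, 4 and 5 lie above the triangle of their array, at 276 or more, and all eggs of mothers 2 and 3 lie between background and triangle, at 108 or less.

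Among the eggs of mothers 2 and 3 the normalized level of pxna was mostly lower where the array as a whole was brighter. The lowest level, 6.41 in egg 3 of mother 3, came from an array with a mean log2 Cy3 signal of 7.42, and the highest, 6.78 in egg 5 of mother 3, from one with a mean of 6.69. Values so near the background have no firm order, and the order of mothers 3 and 2 is not read further. The mean log2 Cy3 signal of the array was 6.66 to 7.34 for mothers 1, 4 and 5, and 6.60 to 7.48 for mothers 2 and 3. These ranges overlapped, but single mothers could differ in brightness. Mother 4 had 7.11 to 7.34 and mother 5 had 6.76 to 7.08. The part of brightness in the values of pxna was not tested.

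The reference gives a second reading of the same spots that the choice of pxna did not use. The same pool was on every array, so it cannot differ by mother, and its tests compare spots and arrays only. In Cy5 the normalized log2 signal averaged 9.94 ± 0.21 (SD, n = 5) on the arrays of mother 1, 9.98 ± 0.17 (SD, n = 5) on those of mother 4, 10.005 ± 0.30 (SD, n = 4) on those of mother 5, 9.88 ± 0.21 (SD, n = 5) on those of mother 2 and 10.01 ± 0.23 (SD, n = 5) on those of mother 3. The groups overlapped throughout, and the highest mean was 1.09 times the lowest. The moderated F-test of limma gave an F of 0.30, an unadjusted p of 0.877 and an adjusted p of 0.999989. The one-way F of the probe, tested by permutation with 100000 resamples, which has no sides, gave p = 0.899411.

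In that channel 0 of the 26792 expressed probes were called (0%), and 194 had an unadjusted p under 0.05 (0.724%). That share is far below what the threshold of 0.05 would give by chance, so p-values in this channel run high. The Cy5 spot of pxna was marked as well above background on all 24 arrays, at 8.77 to 21.0 times the background. The pooled reference thus held a measurable amount of pxna RNA on every array, including those where the egg in Cy3 was near background. The log2 ratio of Cy3 over Cy5 after loess was -0.76 to 0.07 in the eggs of mothers 1, 4 and 5 and -4.95 to -2.98 in those of mothers 2 and 3.

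The 24 arrays lay on 6 slides of 4 arrays, and each slide carried eggs from both sides of the gap. Within every slide the lowest egg of mothers 1, 4 and 5 was above the highest egg of mothers 2 and 3, by 3.00 to 3.47 on the log2 scale. With the slide as a block in the fit, the highest mother exceeded the lowest by 3.39, against 3.46 without it.

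Over all expressed probes 23 of the 24 eggs were nearest to an egg of their own clutch, the exception being egg 1 of mother 1, and its pxna level of 10.02 was at the high end of its clutch. Egg 5 of mother 3, whose mean distance to its own clutch was 0.46 against 0.52 to the next, had the highest pxna level of the low eggs. Leaving out either egg left the gap at 2.77 or more. The egg label could not be checked against egg markers, since 0 of 10 have a probe paired with them in the tables held. Of 18 markers of follicle, red blood and white blood cells, 1 was paired, the haemoglobin gene hbaa2, listed as si:ch211-5k11.6. Its probe was expressed, with 12.59 ± 0.12 in mother 4 (SD, n = 5) against 11.94 ± 0.19 in mother 5 (SD, n = 4) as the highest and lowest means (limma, adjusted p = 0.00546), both mothers with a high pxna level. Its r with pxna was 0.31 over 24 eggs, and its part in the values of pxna was not tested.

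Overlapping clutch ranges were merged into levels, and a transcript was said to have absolute distinct levels where at least 2 remained. That held for 4888 of the 26792 expressed probes (18.2%). The pattern of pxna, with mothers 1, 4 and 5 merged at the higher and mothers 2 and 3 at the lower level, was found for 216 probes including pxna (0.806%), and its inverse for 310. Of the 216, 7 had a gap of at least 1, and 72 were present in 0 eggs of mothers 2 and 3. The presence calls themselves matched those of pxna on all 24 arrays for 14 probes including pxna, of which 12 had its levels. Those paired with a symbol, beside pxna, were map4k2, a kinase upstream of JNK signalling in mammals, spag1b, and 2 probes of slc1a3a, a glutamate transporter.

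Among these probes with a symbol, those of slc1a3a had the widest gap after pxna; probes without one were not ranked. Its first probe (ENSDARG00000026248) had 9.10, 9.06, 9.06, 9.37 and 9.15 in the eggs of mother 1, 8.22, 8.59, 9.08, 8.32 and 8.84 in those of mother 4 and 8.86, 8.75, 9.46 and 9.13 in those of mother 5. For mother 2 the values were 6.46, 6.41, 6.36, 6.13 and 6.27, and for mother 3 they were 6.43, 6.38, 6.34, 6.50 and 6.24. The gap was 1.72, and mother 1 was at least 6.65-fold above mother 2, where 1 of 5 spots was well above background and 0 were called present. The second probe (ENSDARG00000026218) had 0 of 5 spots well above background in mother 2, and mother 1 was at least 7.26-fold above it. Such a lower bound sets the bright mother against the higher, on each array, of the spot itself and the lowest signal well above background. No test is given, since slc1a3a was picked for this pattern. The authors' tables list each of the 2 probes as matching the target of the other, so they are not separate measurements of 2 genes.

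Likeness to pxna was measured as Pearson's r over the 24 eggs, which share mothers and slides, and is given as a description. Among 3510 genes with a symbol, 60 had an r over 0.9, as had 150 of the 26791 other expressed probes. Such values follow largely from the split between mothers, and the genes on the list need not share a function with paxillin.

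The 6 genes with the highest r were cldn11b, sgms2, tmem206, slc1a3a, mettl9 and rps6kb1b. The transcript of cldn11b (chromosome 24, 26287500 to 26296277, Zv9), a claudin of tight junctions, had an r of 0.98. Mother 1 had a level of 7.17 ± 0.10, mother 4 of 7.23 ± 0.06 and mother 5 of 7.18 ± 0.17, against 6.22 ± 0.04 for mother 2 and 6.40 ± 0.04 for mother 3 (SD, n = 4 in mother 5 and 5 in the others). Its clutch ranges gave 3 levels, but 0 of the 10 spots of mothers 2 and 3 were well above background, so the order of those mothers is not read.

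A sphingomyelin synthase gene, sgms2 (chromosome 1, 49289826 to 49306817), had an r of 0.97 and differed 2.71-fold between its highest and lowest mother. The probe of tmem206, now pacc1, a proton-activated chloride channel, differed 2.104-fold with an r of 0.97. That of mettl9, a protein histidine methyltransferase in mammals, differed 2.58-fold and was present in all 24 eggs. So was that of rps6kb1b, a kinase of ribosomal protein S6 in the mTOR pathway (chromosome 15, 17470898 to 17488568), whose level in mother 5 was 12.89 ± 0.07 (SD, n = 4), against 11.50 ± 0.19 for mother 3 (SD, n = 5). In each of the 6, every mean of mothers 1, 4 and 5 was above both means of mothers 2 and 3, while the order within those sets was not always that of pxna. In mothers 2 and 3, sgms2 was called present in 4 of 5 eggs each, and cldn11b, tmem206 and slc1a3a in 0.

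The 3 genes least like pxna were high where pxna was low. The level of c7b, a component of the terminal complement complex, was 9.84 ± 0.32 in mother 3 and 9.41 ± 0.17 in mother 2. Against these, mother 1 had 6.40 ± 0.21, mother 4 had 6.37 ± 0.05 and mother 5 had 6.64 ± 0.33. It was called present in all 10 eggs of mothers 2 and 3 and in 1 of the 14 others, egg 4 of mother 5. The ribonuclease gene rnaset2 was 6.12-fold higher in mother 3 than in mother 1, with an r of -0.98. The transcript of si:ch73-352p4.8 was at least 5.12-fold higher in mother 2 than in mother 4, where 0 of 5 spots were well above background, with an r of -0.99.

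**Figure D3:**
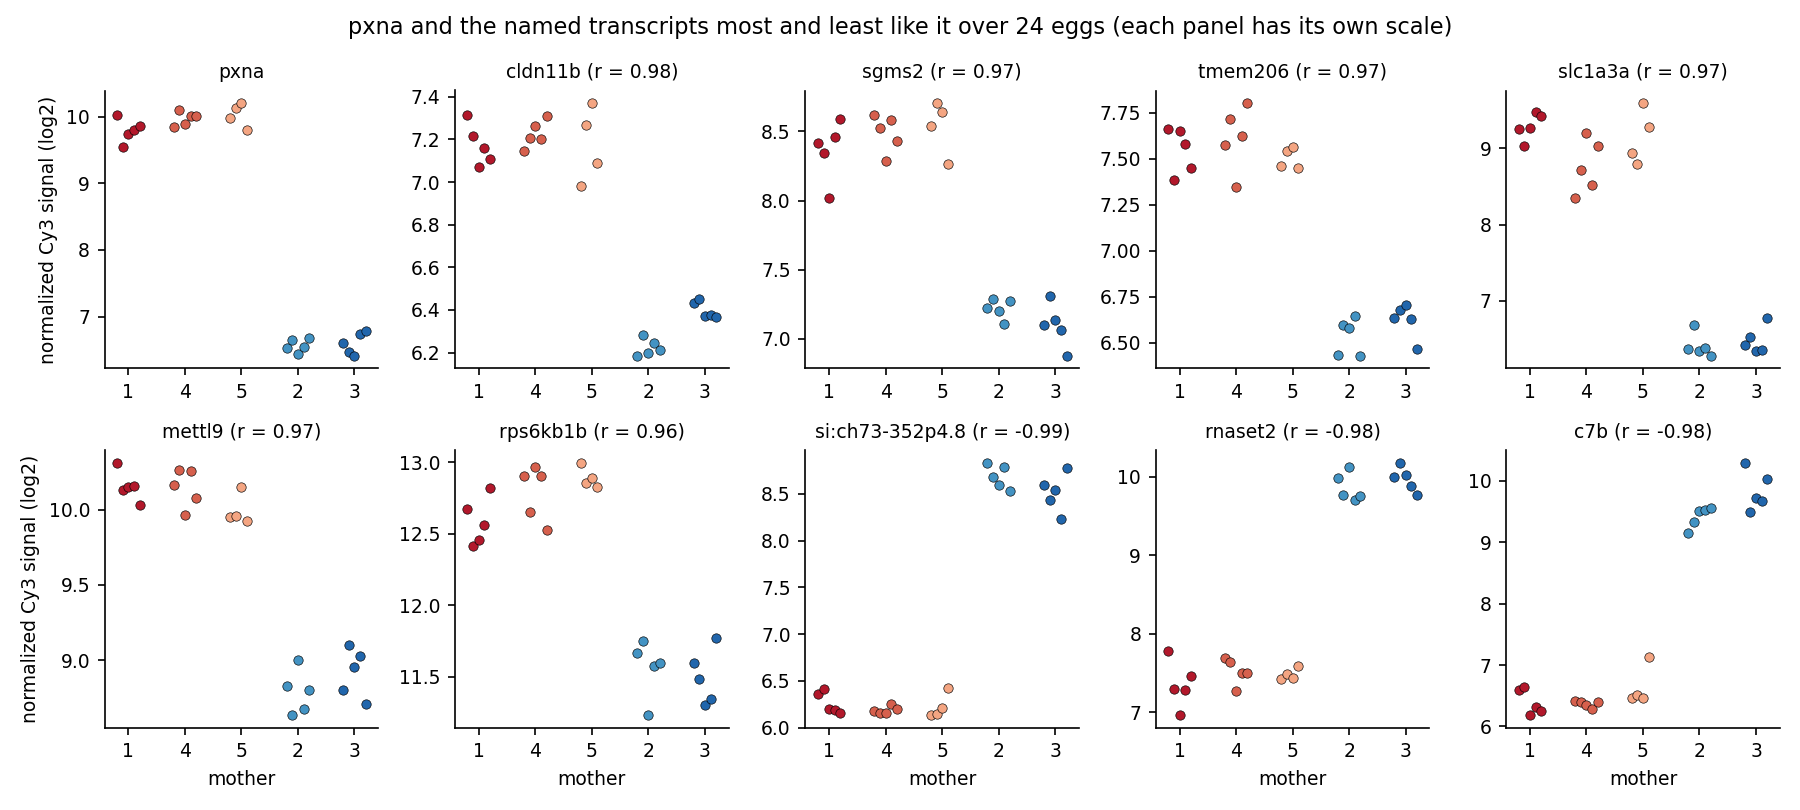
Normalized log2 Cy3 signal of pxna and of the named transcripts with the highest and the lowest Pearson's r with it over 24 eggs, by mother, with 1 point per egg and a separate scale for each panel. The upper row and the first 2 panels of the lower row are high in mothers 1, 4 and 5, and the last 3 panels are high in mothers 2 and 3. Levels of different probes are not comparable between panels.

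Genes that lie near pxna on its chromosome offered a property that the choice of the gene did not use. The authors' tables give no position for pxna, so the order of genes was taken from the RefSeq gene table. The 5 nearest genes on each side with an expressed probe paired with them lay 4 to 48 genes away. Closer expressed genes may be missing, since most probes have no gene paired with them here. Of these 10, 3 had the distinct levels of pxna, namely elac1, slc1a3a and sat1a.1. Over 2847 genes that could be placed in the same way, 77 had those levels, or 2.7%.

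The nearest of them, elac1, which encodes an endonuclease that acts at the 3′ end of tRNA, lies 4 genes from pxna (chromosome 5, 6291778 to 6301560, Zv9). Its level was 13.59, 13.41, 13.50, 13.57 and 13.45 in the eggs of mother 1, 13.41, 13.64, 13.37, 13.41 and 13.66 in those of mother 4 and 13.47, 13.39, 13.54 and 13.43 in those of mother 5. The eggs of mother 2 had 12.53, 12.52, 12.83, 12.59 and 12.51 and those of mother 3 had 12.49, 12.64, 12.83, 12.46 and 12.53. All eggs of mothers 1, 4 and 5 were above all eggs of the other mothers, by a gap of 0.54, and the transcript was present in all 24 eggs. The gene is named only through the authors' table of transcripts with distinct levels, so that its mothers differ is not a result. They differed 1.88-fold at most (limma, adjusted p = 4.39e-11), and the r of elac1 with pxna was 0.96. Median centring of the arrays ended that call (adjusted p = 0.118).

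The transcript of slc1a3a, described above, lies 18 genes from pxna in RefSeq, but the authors' tables place its first probe on chromosome 23 (42054150 to 42201708, Zv9), so the 2 gene orders disagree on it. That of sat1a.1, a spermidine/spermine acetyltransferase 35 genes from pxna on the other side (chromosome 5, 3999159 to 4040700, Zv9), averaged 6.78 ± 0.23 for mother 1, 7.23 ± 0.19 for mother 4 and 7.17 ± 0.19 for mother 5, against 6.42 ± 0.09 for mother 2 and 6.32 ± 0.10 for mother 3 (SD, n = 4 for mother 5 and 5 for the others). It was present in 9 eggs, and its gap was 0.01. The count of 3 neighbours became 2 without egg 4 of mother 1, with processed signals scaled to the 75th percentile and with log2 ratios to the reference. Median centring made it 1.

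The other neighbours did not follow pxna. The transcripts of zbtb43, a zinc finger protein, and cst14b.1, a cystatin, 21 and 29 genes away, had an r of -0.81 and -0.79. With median centring these values were -0.19 and -0.21. That of elac1 was then 0.61, and those of slc1a3a and sat1a.1 were 0.98 and 0.90. Those of pigw and myo19 on that side and of LOC798124 on the other had levels of their own, with an r of -0.32, 0.47 and 0.04. The transcript of rictora, a subunit of the mTORC2 complex, 28 genes away, did not differ detectably, with 8.39 ± 0.16 in mother 5 and 8.18 ± 0.13 in mother 4 as the highest and lowest means (limma, adjusted p = 0.142). That of atp5ib, now atp5meb, a subunit of ATP synthase, differed 1.36-fold (adjusted p = 0.008).

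By the moderated F-test of limma 9 of the 10 neighbours differed between mothers, against 61.6% of all expressed probes. Median centring called 5 of them, without elac1, zbtb43, myo19 and atp5ib, against 12.3% of all. Of the 10, 6 are known by name only through the authors' table of transcripts with distinct levels, which holds only transcripts that differ. Of the 4 whose names came from elsewhere, 3 were called, beside 65.8% of the 2371 expressed probes named that way. Among those 4, sat1a.1 and slc1a3a had the levels of pxna, beside 19 of 1787 genes (1.06%) named and placed likewise. Both were called present in 0 eggs of mothers 2 and 3, so they counted as expressed only through mothers 1, 4 and 5. Their count is therefore not read further, and both are also among the 3 neighbours with the levels of pxna given above. On the whole chromosome of pxna 9 of 157 genes had its levels (5.73%), and on all others 68 of 2690 (2.53%). Taken 1 by 1, the other 24 chromosomes had 0% to 6.87%, and 2 of them had as high a share or a higher one, so the share is not particular to the chromosome of pxna. No test was made on these counts, and those by chromosome were taken after the neighbours were seen.

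**Figure D4:**
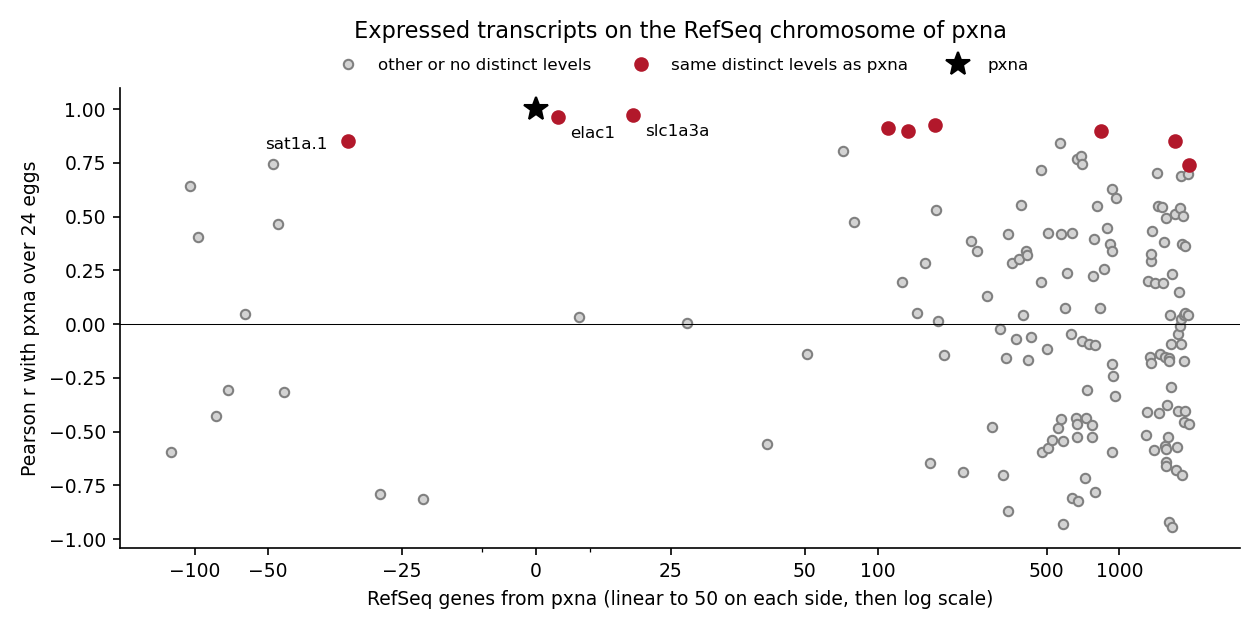
Pearson's r with pxna over 24 eggs (vertical axis), for genes with an expressed probe paired with them on the chromosome that carries pxna in RefSeq. The horizontal axis is the distance from pxna in genes, linear to 50 genes on each side and logarithmic beyond. Red points have the distinct levels of pxna; elac1, slc1a3a and sat1a.1 are 4, 18 and 35 genes away, and the grey points around them span an r of -0.81 to 0.74.

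The other paxillin family members, pxnb, lpxn and tgfb1i1, had no probe paired with them in the tables held. Of 153 genes in the lists of the paxillin family, integrins and focal adhesion partners, 25 besides pxna had an expressed probe paired with them. The others are not thereby unexpressed, since most probes have no gene paired with them here. Of these, 17 are named through tables that were not selected for distinct levels, and 10 of the 17 (58.8%) were called by limma, beside 65.8% of all expressed probes named that way. From the lowest to the highest mother the median fold was 1.32 for the 17 and 1.39 for those probes. The other 8 are named only through the table of transcripts with distinct levels, and all 8 were called, as that choice entails. Median centring called 1 of the 17, sorbs3, and among the genes named below it ended the calls of flna, lims1, abl1, ptpn1, grb2a, nck1b, pak2b and arf6a. None of the 25 had the distinct levels of pxna. Only 0.806% of all expressed probes had them, so their absence among 25 genes is not read further.

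Among the integrin receptors, itgb5 did not pass the test, with mother 5 at 9.83 ± 0.04 (SD, n = 4) and mother 1 at 9.60 ± 0.04 (SD, n = 5; limma, adjusted p = 0.143). The transcript of itgb6, named only through the table of distinct levels, was 1.95-fold higher in mother 2 than in mother 1, and its r with pxna was -0.79. Of the proteins that tie integrins to actin, filamin, encoded by flna, was 1.73-fold higher in mother 2 than in mother 5 (adjusted p = 0.00012). Talin 2, encoded by tln2a, had an adjusted p of 0.237 and alpha-actinin 4, encoded by actn4, one of 0.0736.

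The integrin-linked kinase gene ilk, whose product binds paxillin, did not pass the test (adjusted p = 0.107), with 10.56 ± 0.15 in mother 1 and 10.32 ± 0.14 in mother 2 (SD, n = 5 each). Its partners of the PINCH family, lims1 and lims2, are named only through the table of distinct levels, so that they differ is not a result. The spread of lims2 was the largest among the 25. Mother 1 had a level of 6.93 ± 0.14, mother 4 of 8.74 ± 0.27, mother 5 of 6.83 ± 0.18, mother 2 of 8.15 ± 0.32 and mother 3 of 8.001 ± 0.26 (SD, n = 4 for mother 5 and 5 for the others). Mother 4 was thus 3.77-fold above mother 5, although both had a high level of pxna. In mother 5, lims2 was called present in 1 of 4 eggs and 3 of 4 spots were well above background. In mother 1 it was called present in 1 of 5 eggs, so these low levels were near the floor. For lims1 mother 5 was 1.34-fold above mother 3.

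Of the kinases and phosphatases at focal adhesions, abl1 was 1.54-fold higher in mother 5 than in mother 2 (adjusted p = 6.11e-05) and ptpn1 was 1.40-fold higher in mother 3 than in mother 1. The Src family kinase yes1 had an adjusted p of 0.618. The highest r with pxna among the 25, 0.70, was that of abl1. In mother 2, abl1 was called present in 0 of 5 eggs, while 4 of 5 spots were well above background.

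Among the adaptors, the lowest r, -0.96, was that of sorbs2a, which encodes an SH3 domain protein that binds vinculin in mammals. Its level was 7.19 ± 0.16 for mother 2 and 7.06 ± 0.15 for mother 3, against 6.25 ± 0.08 for mother 1, 6.30 ± 0.04 for mother 4 and 6.30 ± 0.08 for mother 5, the inverse of the levels of pxna. In the eggs of mothers 1, 4 and 5, 0 spots were well above background, and the gene is named only through the table of distinct levels. The adaptor grb2a was 1.54-fold higher in mother 2 than in mother 3, nck1b, named in the same way as sorbs2a, was 1.70-fold higher in mother 2 than in mother 1, and crk, whose product binds phosphorylated paxillin, had an adjusted p of 0.0531.

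Of 6 genes of the PAK module and the small GTPases with a name from elsewhere, 5 were called (83.3%), beside 65.8% of all such probes. The other 3 were pak4, pak2b and arf6a, which only the table of distinct levels names. The kinase gene pak4 was 1.95-fold higher in mother 4 than in mother 1, pak2b was 1.34-fold higher in mother 5 than in mother 4, and the GTPase gene arf6a was 1.64-fold higher in mother 3 than in mother 2. The GTPase gene rhoad, now rhocb, had an adjusted p of 0.0825. The probe designed for rac1a is called myof in another column of the same table, so its gene is uncertain, and the 5 called include it.

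**Figure D5:**
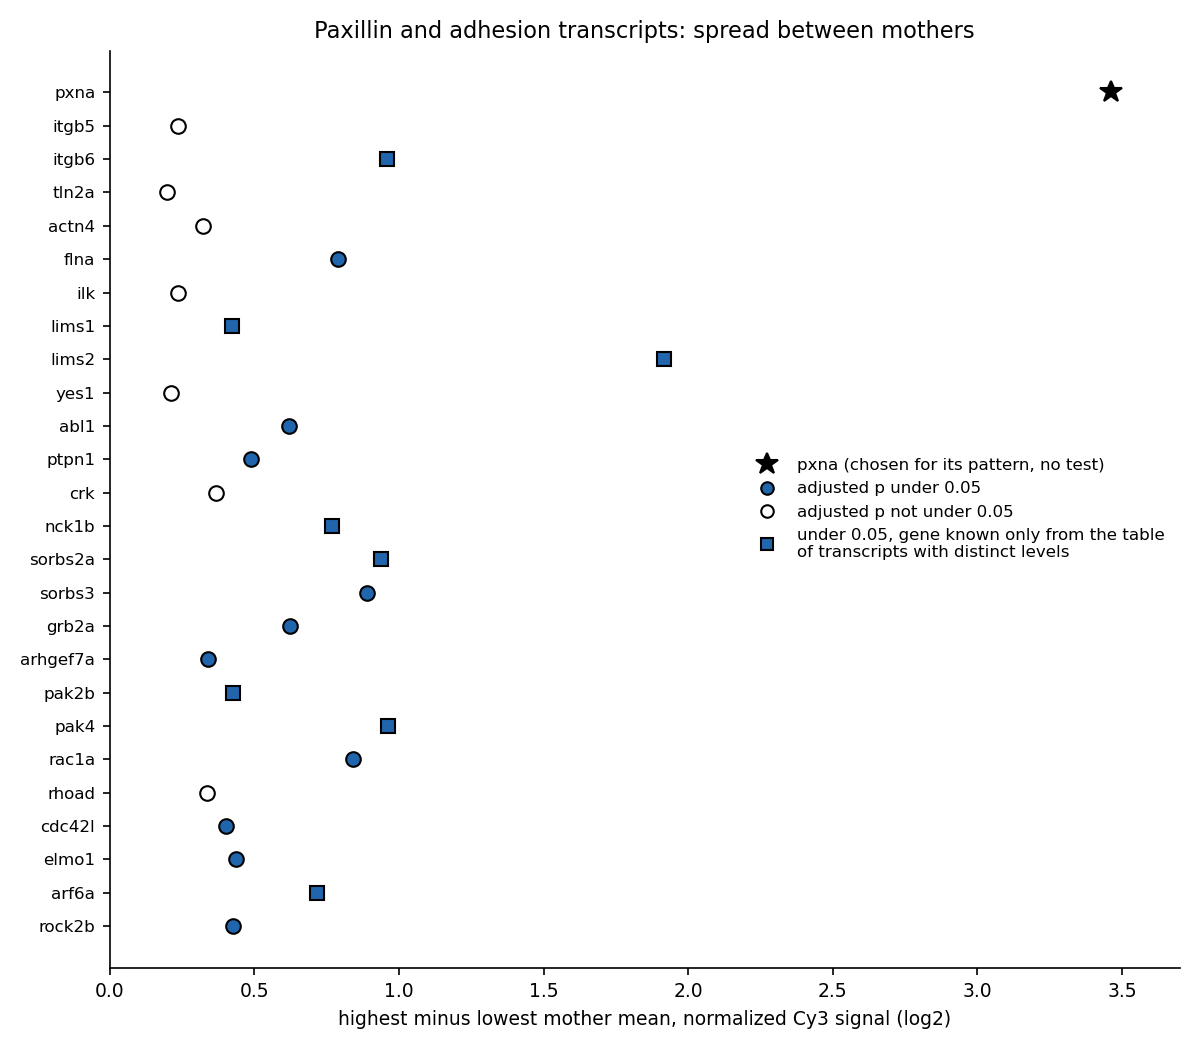
Difference between the highest and the lowest mother mean of the normalized log2 Cy3 signal (horizontal axis). Shown are pxna (star) and the 25 adhesion genes with an expressed probe paired with them, from integrins at the top to the small GTPases at the bottom. Filled circles and squares have an adjusted p under 0.05, and squares are named only through the table of transcripts with distinct levels. The star of pxna is filled but stands for no test. The spread of pxna is 3.46, and the next, that of lims2, is 1.91.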

How the data were processed

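The authors deposited the output of Agilent Feature Extraction 10.7.3.1 for each array, in which the median signal is an intensity with the background still in it, and the processed signal an intensity with background and dye bias removed by that software. The log2 values in the series table were quantile normalized by the authors. RNA was polyadenylated, depleted of ribosomal RNA and amplified before labelling, which can change the relative signal of transcripts.

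Here log2 median Cy3 signals of 88754 probes were quantile normalized over the 24 arrays, with 60 non-uniform spots left out. Presence was called as the methods describe (log2 variance minimum at -3.74, probability over 0.95, at least 4 arrays), giving 26792 expressed probes. The paper reports a somewhat larger number of expressed transcripts. Mothers were compared with limma 3.58.1 in R 4.3.3 (lmFit, eBayes, moderated F, Benjamini-Hochberg adjustment at 0.05 over all expressed probes). Steps were tested on simulated data. Plots used Python 3.11.15 and matplotlib 3.10.9.

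Eggs were grouped by the mother given in the labels. Nothing beyond the clutch ties same-numbered eggs, and the 46 correlations of their deviations ran from -0.528 to 0.668 with 22 over 0.1, so the numbers do not pair eggs. The members, gene lists and tests were chosen with earlier results of these data known. Named genes were pxna, the 6 with the highest and the 3 with the lowest r, the neighbours, and per list the 3 called members with the largest F and the 2 not called with the smallest, with the brightest probe standing for a gene; spag1b and map4k2 were named after their values were seen.

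Only parts of the tables that name probes were held, with a gene for 3835 probes and a symbol for 3701, and columns of the authors' own tests were not used. Unlike for pxna, further targets of cross-hybridization were listed for the probes of many other named genes, such as 4 for map4k2 and 3 for lims2. For others, such as flna, 0 were listed. Gene order is that of RefSeq on GRCz12tu. Arrays give no counts, so their number and the signal over background limit the precision. Alternatives were other background corrections, scalings, filters and blocks, and each egg left out.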

Additional observations from a re-analysis of the deposited data

Results flagged for a closer look

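The search for an egg far from its sisters covered 230 clutch and transcript combinations and found 23, where about 11.5 arise by chance. For pxna, 10 groups were searched and 1 was found, in the reference and not in the eggs: the Cy5 signal on the array of egg 3 of mother 5 was 10.45, against 9.79 to 9.89 on the other arrays of that mother. The Cy3 level of pxna in that egg was 10.20, the highest of all eggs.

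Among the transcripts like or unlike pxna, the second probe named for slc1a3a was at 6.69 in egg 2 of mother 2 and the first at 9.37 in egg 4 of mother 1, mettl9 was at 10.15 in egg 3 of mother 5, and c7b was at 7.13 in egg 4 of mother 5, against 6.46 to 6.51 in its sisters. Among the neighbours, zbtb43 was at 8.26 in egg 4 of mother 5, myo19 at 7.23 in egg 5 of mother 4, elac1 at 12.83 in egg 3 of mother 2, rictora at 8.41 in egg 2 of mother 4 and atp5ib at 10.18 in egg 5 of mother 4.

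Of the adhesion genes, itgb6 was at 10.09 in egg 5 and lims1 at 10.05 in egg 2 of mother 4. In mother 1, yes1 was at 7.29, rhoad at 13.18 and cdc42l at 9.50 in egg 1, and abl1 was at 6.82 in egg 2. In mother 2, sorbs2a was at 7.46 in egg 2, and pak4 at 10.58, rac1a at 13.67 and rhoad at 12.97 in egg 3. In mother 3, arhgef7a was at 7.23 in egg 4 and pak2b at 12.08 in egg 3. The probe of rac1a was also apart in mother 4, at 12.37 in egg 2.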

How the results depend on the processing

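The difference of pxna between its highest and lowest mother was 3.46 on the log2 scale, between mothers 5 and 2. Scaling processed signals to their 75th percentile gave 5.91, and it was 3.64 with normexp background correction, 4.19 with the arrays centred on their median, 3.74 with the deposited normalized values and 3.86 with the Cy3 over Cy5 ratio. Leaving out 1 egg gave 3.41 to 3.54, and the gap between the 2 levels then stayed at 2.77 to 2.96. The highest and lowest mothers became 5 and 3 with the 75th percentile, 4 and 2 with median centring and 4 and 3 with the ratio. The smallest difference of a mean of mothers 1, 4 and 5 from one of mothers 2 and 3, 3.19, was 2.64 to 5.68 under these 5 alternatives. The gap was 1.44 with median centring and 4.46 with the 75th percentile. Median centring moved the median expressed probe by 0.79 between mothers 4 and 2, and relative to that shift their difference of pxna was 3.40; the widest shift between any 2 mothers was 1.03. The cause of these moves was not tested.

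Median centring called 3303 expressed probes, against 16514. It called 1 of the 17 adhesion genes in place of 10, 5 of the 10 neighbours in place of 9, gave 1 neighbour the levels of pxna in place of 3, and gave those levels to 30 probes in place of 216. Among probes present on all 24 arrays, which leaves fewer probes to test, 61.8% were called. Of the neighbours, zbtb43, cst14b.1, pigw, elac1 and atp5ib were tested there and called, and rictora was tested and not called. The remaining neighbours were not present on all arrays and so were not tested, and no neighbour that was tested lost its call. Of the 6 genes most like pxna, 2 were among the first 6 with median centring and 3 with the 75th percentile. Of 44 probes named or listed, 17 lost their call with median centring and 2 each with the 75th percentile, with the ratio and with the slide as a block, under which crk gained one. In 0 of the called probes did the 5 mother means correlate negatively with the reported ones under an alternative that also called them.

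Leaving out 1 egg gave calls for 9 to 12 of the 17 adhesion genes and for 9 of the 10 neighbours each time. Over the same sets 58.4% to 66.9% of all expressed probes were called. Between 2 and 3 neighbours then had the levels of pxna. The adjusted p of pxna in Cy5 (limma) was then 0.99977 to 0.999998, in a channel where p-values run high, so it carries little information. Without single eggs crk had a call in 7 of 24 sets, rhoad in 3 and actn4 in 1, and rock2b lost its call in 2. With the egg number as a replicate block the difference of pxna was 3.49. That block called 10 of the 17 adhesion genes and 9 of the 10 neighbours, beside 59.8% of all expressed probes, and it changed no call among the probes named or listed. A further probe of pxna could not be tested, since none was paired with it. The signal over background limits the levels of pxna in mothers 2 and 3, which are near the floor of the arrays.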
